A study of Mus musculus with 18 samples.

Results

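The comparison described here is between 2 murine triple-negative breast cancer cell lines grown in complete medium, metM-Wnt and E-Wnt. Its members are the 3 metM-Wnt and 3 E-Wnt cultures that were kept for 72 h in RPMI medium with 2.2 µM folic acid and fetal bovine serum, 6 of the 18 arrays of the study. The sample labels give this concentration in µM and the design text gives it in mM, and the labels were followed. The labels give liver metastasis as the tissue of origin of metM-Wnt and mammary tumor as that of E-Wnt. The whole study asked how withdrawal of folic acid changes expression in these lines and in M-Wnt, also from a mammary tumor, so each line was also grown for 72 h in medium without folic acid (0 µM) and with dialyzed serum. RNA of each culture was labelled red (Cy5) and hybridised to a 2-colour Agilent array together with green-labelled (Cy3) RNA of NIH3T3 mouse fibroblasts. NIH3T3 served as the common reference sample on all 18 arrays and the dyes were never swapped. Each group holds cultures of 1 line, which the design text terms biological replicates, so its 3 arrays measure the spread between cultures of that line and not between tumours.

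The Wnt lines derive from mammary tumours of mice that express Wnt-1 in the mammary gland. E-Wnt is known as an epithelial line and M-Wnt as a mesenchymal, claudin-low line, and metM-Wnt is a metastatic derivative of M-Wnt. Epithelial cells of the breast hold a cortical network of actin and linker proteins under a polarised membrane, and mesenchymal cells replace much of it with stress fibres and focal contacts.

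Of 80520 probes on the array, 39261 passed the filter on low signal: both red spots of the probe lay well above background on each of the 3 control-medium arrays of metM-Wnt, or of E-Wnt, or of both. They were tested as 39252 features, of which 71 are named genes and the others single probes. The deposited files pair no probe with a gene name, so a gene is named only through a sequence accession contained in a probe's identifier, through RefSeq (GRCm38.p6). Of 160 genes listed as markers of breast, liver, stromal and immune cell types, 2 had a tested named probe, so the identity of the lines was not checked against a marker panel here. Mean red signal was 3502, 3393 and 3268 on the metM-Wnt control arrays, against 4959, 4701 and 6649 on the E-Wnt control arrays. Green signal, from the common sample, was 3822, 3516 and 4273 on the metM-Wnt arrays and 4048, 4378 and 3560 on the E-Wnt arrays. The part of the red difference in the results below was not tested. All 3 metM-Wnt control arrays were on 1 slide and all 3 E-Wnt control arrays on another, so slide and line cannot be told apart.

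A value below is a log2 ratio of a line to NIH3T3 on 1 array, and a difference is the metM-Wnt mean minus the E-Wnt mean of these ratios, with its standard error (SE) from limma. A feature is called when limma's Benjamini-Hochberg adjusted p over all 39252 features is under 0.05. In control medium 17813 features, 45.4%, were called. Of these, 9368 were higher in metM-Wnt (23.9% of those tested) and 8445 were lower (21.5%). The calls include 587 probes well above background on all 3 metM-Wnt arrays and no E-Wnt array, and 1012 for which the reverse held. Those probes passed the filter only through the line where they are bright, which fixes their direction. When the filter asked for signal well above background on all 6 arrays, 15164 of 33732 features were called, 8181 higher and 6983 lower. Among all 39252 features, calls of at least 2-fold numbered 6720, or 17.1%. When each array's ratios were centred on the median in place of loess, 3999 features were called higher and 8465 lower, so the share of calls that were higher was 32.1% against 52.6%. With that centring the median difference over all features was -0.18, against 0.05 with loess. Log2 ratios of 2 arrays of the same line correlated across features at 0.964 to 0.981, and those of a metM-Wnt and an E-Wnt array at 0.739 to 0.773.

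**Figure D1:**
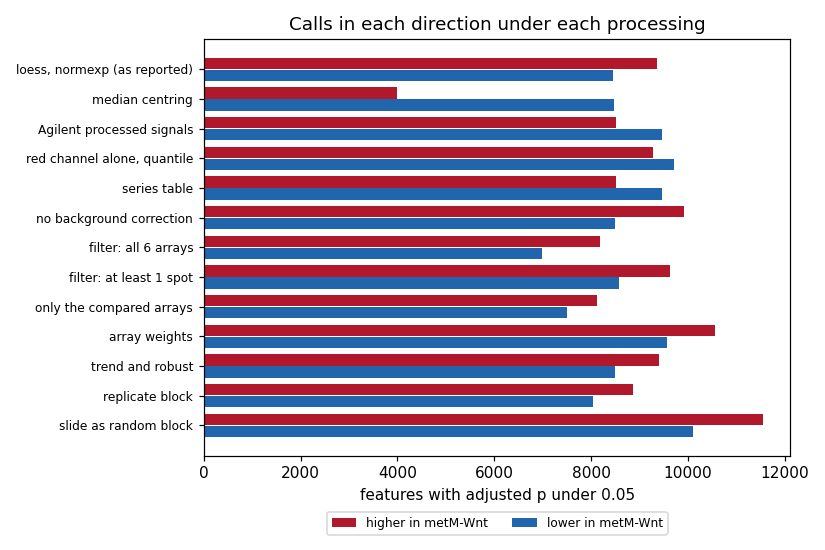
Features called higher (red) and lower (blue) in metM-Wnt than in E-Wnt in control medium (x axis, number of features with adjusted p under 0.05) under each processing (y axis). With median centring 3999 features were higher and 8465 lower. In all other settings drawn, the calls in each direction lay between 6983 and 11543.

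The sequences of the probes behind the largest differences of named genes are given here because the deposited files name no gene, and the sequence is what each value stands for. Probes are written 5′ to 3′ in the sense of the transcript they read. Hspb1 on chromosome 5 and Pdlim5 on chromosome 3 are also read by a catalogue probe whose sequence overlaps the one named by accession. Capitals mark the bases that both probes of a pair share.
Hspb1 accession probe: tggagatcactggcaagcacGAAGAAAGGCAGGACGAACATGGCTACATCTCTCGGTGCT
Hspb1 catalogue probe: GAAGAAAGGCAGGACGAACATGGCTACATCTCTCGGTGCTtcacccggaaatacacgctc
Pdlim5 accession probe: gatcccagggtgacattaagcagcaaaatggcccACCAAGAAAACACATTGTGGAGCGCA
Pdlim5 catalogue probe: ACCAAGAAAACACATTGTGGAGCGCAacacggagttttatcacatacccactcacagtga

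The long non-coding RNA BC065403 (chromosome 9) is read by a 60-base probe and by a 45-base probe that lies inside it, with the shared bases in capitals. Those of Tbc1d16 (chromosome 11), Ezr (chromosome 17) and Slfn3 (chromosome 11) are given whole, and the 2 of Tbc1d16 share no stretch.
BC065403 60 base probe: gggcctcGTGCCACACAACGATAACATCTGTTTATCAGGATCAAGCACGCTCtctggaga
BC065403 45 base probe: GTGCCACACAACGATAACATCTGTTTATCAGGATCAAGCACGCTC
Tbc1d16 60 base probe: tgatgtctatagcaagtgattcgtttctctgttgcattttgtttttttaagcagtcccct
Tbc1d16 45 base probe: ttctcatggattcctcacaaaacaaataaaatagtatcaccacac
Ezr accession probe: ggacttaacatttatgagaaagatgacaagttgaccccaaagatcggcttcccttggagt
Slfn3 accession probe: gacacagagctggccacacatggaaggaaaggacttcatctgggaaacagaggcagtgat

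Of the 71 named genes, 21 were higher and 12 lower in metM-Wnt, 33 or 46.5%, close to the 45.4% of all features. Their median difference was 0.20, against 0.05 over all features. Of the 33, 3 (Rnf125, Gm904 and BC006965) passed the filter on low signal only through the line where they were higher. That fixes their direction, so they are given as values with no test, though they stay in the count of 33. In 38 of the 71 the 3 arrays of one line all lay beyond the 3 of the other, where 51.4% of all features did. Among the 33 called genes, 15 were called under each alternative setting that tested them, and these include the genes with the 6 largest increases and the 9 largest decreases. Gm904 is among these decreases, and its repeated calls are no support, since the filter fixed its direction. The called genes outside the 15, none with a difference above the 1.14 of Selenoh in size, lost the call under at least 1 setting.

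Of 32 genes listed for actin, the cell cortex and adhesion, 2 had a tested named probe, and 1 of them fell. That was the gene of ezrin (Ezr), which links the plasma membrane to cortical actin and stands on the luminal epithelial marker list. Its log2 ratios were 0.36, -0.78 and -0.06 in metM-Wnt, against 1.60, 1.05 and 1.08 in E-Wnt. Every metM-Wnt array lay below every E-Wnt array, a difference of -1.41 (SE 0.28, n = 3 arrays per line, limma adjusted p = 0.00053), or 2.65-fold. Pdlim5, a PDZ and LIM domain scaffold that binds alpha-actinin and is not on that list, rose in metM-Wnt. It read 0.90, 0.77 and 0.48 in metM-Wnt, against -0.46, -0.87 and -0.73 in E-Wnt. The groups did not overlap, and the difference was 1.41 (SE 0.21, limma adjusted p = 4.3e-05). The overlapping catalogue probe gave a difference of 1.46 for Pdlim5. Pdcd10, the other tested member of the list, with a role in endothelial junctions, had a difference of -0.22 (SE 0.16) and was not called.

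Of the heat shock and protein folding list 1 tested gene rose and 1 fell. Hspb1, a small heat shock protein that binds unfolded proteins and actin, read -2.51, -2.17 and -1.76 in metM-Wnt, against -4.19, -4.04 and -3.97 in E-Wnt. Both lines lay below NIH3T3, and the metM-Wnt arrays lay above all E-Wnt arrays. The difference was 1.92 (SE 0.18, limma adjusted p = 1.4e-07), or 3.79-fold. On the catalogue probe, which shares 40 bases with the accession probe, Hspb1 read -2.36, -1.97 and -1.58 in metM-Wnt and -4.13, -3.80 and -4.35 in E-Wnt, a difference of 2.13. Ppid, or cyclophilin 40, a co-chaperone of HSP90, fell in metM-Wnt. Its ratios were -0.00, 0.34 and 0.34 in metM-Wnt, against 1.32, 1.16 and 1.65 in E-Wnt, a difference of -1.15 (SE 0.15, limma adjusted p = 1.1e-05). Of the 29 genes on this list 3 had a tested named probe. The remaining one, the mitochondrial chaperonin Hspd1, had a difference of -0.10 (SE 0.16) and was not called. Dnajb9, a chaperone of the endoplasmic reticulum and the sole tested member of the endoplasmic reticulum stress list, had a difference of 0.13 (SE 0.14) and was not called.

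**Figure D2:**
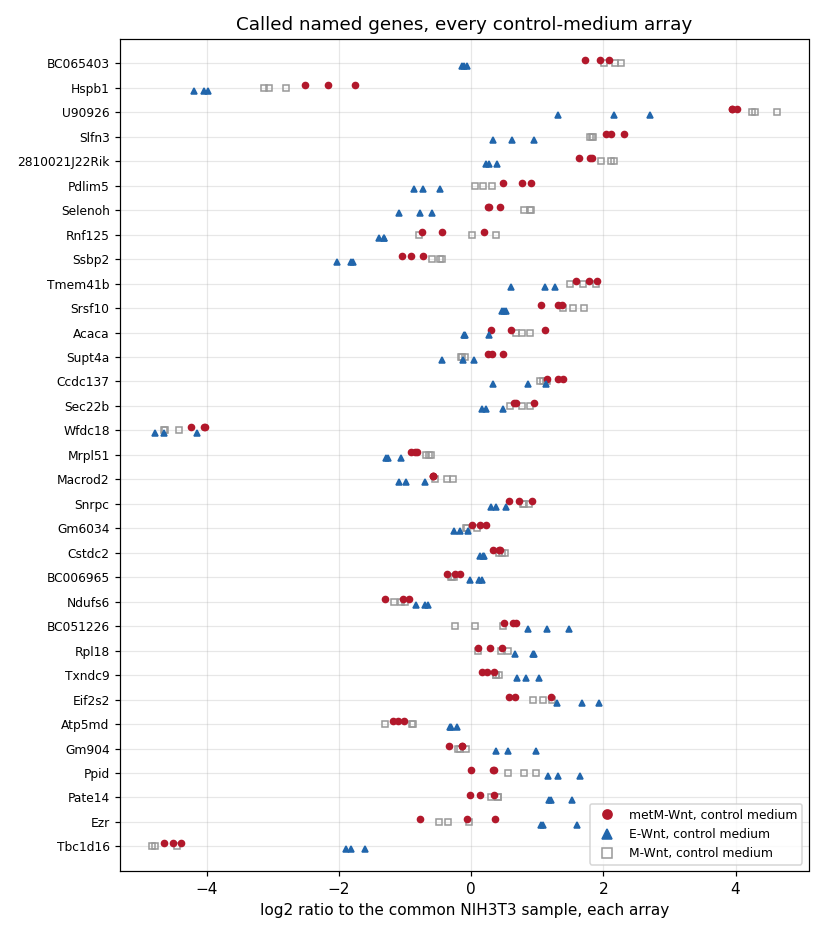
Log2 ratio to the common NIH3T3 sample (x axis) of the 33 called named genes (y axis, highest difference at the top) on every control-medium array of metM-Wnt (red circles), E-Wnt (blue triangles) and M-Wnt (grey squares). Hspb1 lies below NIH3T3 in all 3 lines, and Tbc1d16 reads -4.64 to -4.40 on the metM-Wnt arrays, below the -1.90 to -1.61 of E-Wnt.

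The largest difference of a named gene was a decrease in Tbc1d16, a GTPase-activating protein for Rab GTPases, which direct traffic of membrane receptors. RefSeq lists the accession of its probes among the gene's synonyms, so which transcript of Tbc1d16 they read is not settled. The mean of its 2 probes was -4.64, -4.50 and -4.40 in metM-Wnt, against -1.82, -1.61 and -1.90 in E-Wnt. No arrays overlapped, and the difference was -2.74 (SE 0.16, limma adjusted p = 3.9e-10), or 6.67-fold. The probes differed in size, with -3.84 on the 60-base probe and -1.63 on the 45-base probe of Tbc1d16. Tmem41b, a membrane protein of the endoplasmic reticulum that autophagosome formation needs, is the other tested member of the autophagy and trafficking list. It rose by 0.76 (SE 0.17, limma adjusted p = 0.0012). Sec22b, a SNARE of transport between the endoplasmic reticulum and the Golgi, rose by 0.47 (SE 0.16, limma adjusted p = 0.023), a call lost without metM-Wnt control replicate 1 (limma adjusted p = 0.097), E-Wnt control replicate 1 (0.068) or E-Wnt control replicate 2 (0.077), and with median centring (0.65).

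Non-coding transcripts gave 2 of the 3 largest increases. BC065403 read 1.95, 1.72 and 2.09 in metM-Wnt, against -0.11, -0.14 and -0.07 in E-Wnt. E-Wnt lay at the level of NIH3T3 and metM-Wnt about 4.07-fold above E-Wnt, a difference of 2.03 (SE 0.13, limma adjusted p = 1.3e-09). The 60-base probe gave 2.15 and the 45-base probe 1.90 for BC065403. U90926 read 3.95, 4.02 and 3.95 in metM-Wnt, against 2.16, 1.32 and 2.71 in E-Wnt. The E-Wnt arrays varied more (SD 0.70) than the metM-Wnt arrays (SD 0.04), and the groups did not overlap. The difference in U90926 was 1.91 (SE 0.38, limma adjusted p = 0.00051). Of 3 other non-coding genes tested, BC051226 (-0.56, SE 0.17) and BC006965 (-0.35, SE 0.09) were lower in metM-Wnt, and AY512915 (-0.16, SE 0.13) was not called. BC006965 was not well above background on any metM-Wnt array, so its decrease is bounded as at least 1.18-fold.

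Slfn3, a member of the Schlafen family, which in mice includes interferon-induced genes, was the sole tested gene of the interferon list. It read 2.32, 2.04 and 2.11 in metM-Wnt, against 0.95, 0.62 and 0.33 in E-Wnt. All metM-Wnt arrays lay above all E-Wnt arrays, by 1.52 on average (SE 0.21, limma adjusted p = 1.2e-05). Rnf125, a ubiquitin ligase known to act on RIG-I, was well above background on the metM-Wnt arrays and on none of the E-Wnt arrays. Its measured means were -0.33 in metM-Wnt and -1.35 in E-Wnt, where the level has only an upper limit. 2810021J22Rik, for which no role is given here, read 1.63, 1.82 and 1.80 in metM-Wnt, against 0.40, 0.23 and 0.27 in E-Wnt. The difference was 1.45 (SE 0.11, limma adjusted p = 1.1e-08), with no overlap between the lines.

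Srsf10, a splicing regulator of the SR family, was the sole tested member of the splicing and RNA binding list of 26 genes and rose in metM-Wnt. It read 1.31, 1.38 and 1.05 in metM-Wnt, against 0.53, 0.49 and 0.46 in E-Wnt. That is a difference of 0.75 (SE 0.12, limma adjusted p = 8.7e-05) with no overlap. Ssbp2, a DNA-binding cofactor of LIM-domain transcription complexes that is on no list, read -1.05, -0.73 and -0.91 in metM-Wnt, against -2.03, -1.79 and -1.82 in E-Wnt, a difference of 0.98 (SE 0.11, limma adjusted p = 2.2e-06). Supt4a, a subunit of the elongation factor DSIF, rose by 0.52 (SE 0.14, limma adjusted p = 0.0053). Of the ribosome and RNA polymerase list 3 members were tested, Supt4a and the uncalled Rps23rg1 (0.20, SE 0.15) and Twistnb (0.09, SE 0.13).

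Other genes of translation and ribosomes, on none of the lists, were called in both directions or not called. Eif2s2, the beta subunit of initiation factor eIF2, read 0.58, 1.21 and 0.66 in metM-Wnt, against 1.67, 1.93 and 1.30 in E-Wnt. The lines did not overlap, and the difference was -0.82 (SE 0.19, limma adjusted p = 0.0021). Rpl18, a protein of the large ribosomal subunit whose sequence also occurs in processed copies elsewhere in the genome, differed by -0.57 (SE 0.15, limma adjusted p = 0.0059). Mrpl51, of the mitochondrial ribosome, differed by 0.35 (SE 0.08, limma adjusted p = 0.0027). Rpl39l (-0.34, SE 0.22) and Mrps15 (0.10, SE 0.13) were not called.

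Of 27 genes listed for redox and detoxification 3 were tested, of which 1 rose and 1 fell. Selenoh, a nucleolar selenoprotein with a redox fold, read 0.44, 0.27 and 0.26 in metM-Wnt, against -0.77, -1.09 and -0.59 in E-Wnt, a difference of 1.14 (SE 0.31, limma adjusted p = 0.006). Txndc9, a thioredoxin-like protein on the same redox list, fell by 0.60 (SE 0.10, limma adjusted p = 0.00012), and Akr1b10, an aldo-keto reductase, had -0.43 (SE 0.21) and was not called. Atp5md, a small subunit of the mitochondrial ATP synthase and the sole tested gene of the oxidative phosphorylation list, read -1.18, -1.11 and -1.02 in metM-Wnt, against -0.32, -0.22 and -0.30 in E-Wnt. No arrays of Atp5md overlapped, and the difference was -0.82 (SE 0.15, limma adjusted p = 0.00027). Ndufs6, a subunit of complex I that is on no list, fell by 0.36 (SE 0.11, limma adjusted p = 0.011), and 2 overlapping catalogue probes gave -0.29, which was called, and -0.23, which was not. Acaca, the first enzyme of fatty acid synthesis and the sole tested gene of that list, had a difference of 0.65 (SE 0.24, limma adjusted p = 0.034), and that call was lost without metM-Wnt control replicate 1 (limma adjusted p = 0.17) or 3 (0.055), or when E-Wnt control replicate 2 (0.089) or 3 (0.10) was left out. The Acaca call was also lost with median centring (0.19), with array weights (0.07) and with the red channel alone (0.051).

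Folate-dependent one-carbon metabolism had 1 tested gene among the 38 listed. Gcsh, the lipoyl carrier of the glycine cleavage system, read 0.36, -0.12 and -0.24 in metM-Wnt, against -0.42, -0.76 and -0.31 in E-Wnt. Its difference of 0.50 (SE 0.23) was not called in control medium (limma adjusted p = 0.094) although the groups did not overlap. The same line difference of Gcsh in folic acid-free medium was 0.70 and was called (limma adjusted p = 0.022), and the difference between the media was not (limma adjusted p = 0.83). Ass1, an enzyme of the urea cycle, was the sole tested hepatocyte marker. It read 1.19, 0.18 and 0.51 in metM-Wnt, the line from a liver metastasis, against 0.65, 0.55 and 0.26 in E-Wnt. The Ass1 arrays of the lines overlapped, with a difference of 0.14 (SE 0.24) that was not called.

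The remaining called genes among the 12 lower were Pate14 and Gm904. Pate14, of a family of small secreted cysteine-rich proteins, differed by -1.15 (SE 0.16, limma adjusted p = 1.4e-05). Its 60-base probe gave -1.64 and its 45-base probe -0.67. Gm904 was not well above background on any metM-Wnt array and is bounded as at least 1.30-fold lower there. Ccdc137 rose by 0.51 (SE 0.16, limma adjusted p = 0.014), which was lost without metM-Wnt control replicate 1 (adjusted p = 0.053) or without E-Wnt control replicate 3 (adjusted p = 0.09). The Ccdc137 call was also lost with median centring (0.22), with array weights (0.10) and when the 6 control-medium arrays were fitted alone (0.081). The 6 smallest increases that were called, that of Mrpl51 among them, lay between 0.23 and 0.42. The 38 named genes that were not called had differences between -0.43 and 0.68.

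Because few genes have a name, the probe sequences in the scanner files were used to check how far 2 probes of 1 transcript gave the same value. Among tested probes, 252 pairs of an accession-named type probe (identifier prefix Mm_ncRNA) and a catalogue probe shared at least 25 bases on the same strand. In 229 of them, 90.9%, the 2 differences between the lines had the same sign, and their median gap was 0.105 on the log2 scale. Across these pairs Pearson's r was 0.959, as a description, since the pairs share arrays and bases. Pairs on opposite strands numbered 17, of which 16 (94.1%) had the same sign, with r of 0.518 and a median gap of 0.335. Of 1414 transcripts with several tested Mm_ncRNA probes, 700 had at least 1 called probe. In 480 of those 700 all tested probes were called with 1 sign, and calls went in opposite directions within 1.

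**Figure D3:**
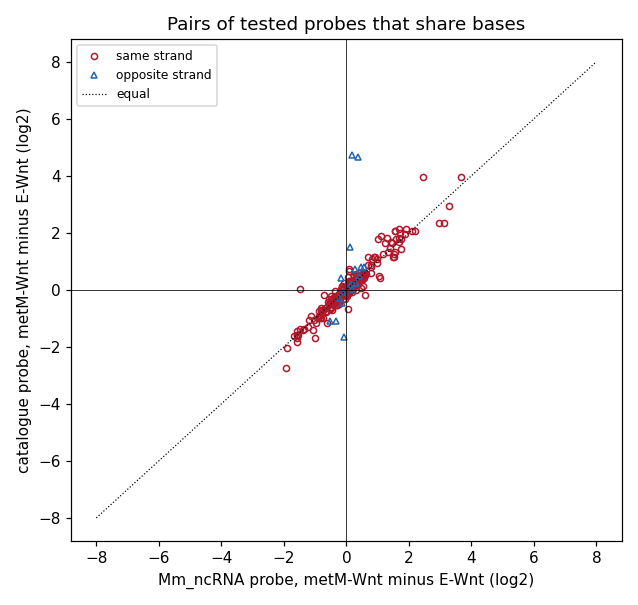
Difference between metM-Wnt and E-Wnt (log2) measured by an Mm_ncRNA probe (x axis) and by a catalogue probe that shares at least 25 bases with it (y axis), for 252 pairs on the same strand (red circles) and 17 on opposite strands (blue triangles). The dotted line marks equal values, and 229 of the same-strand pairs have the same sign in both.

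Probes could also be placed exactly where their whole sequence lies in a 300-base window around an annotated gene start, from 250 bases before to 50 after it. RefSeq windows of GRCm38.p6 placed 228 probes, of which 117 were tested. The placement was chosen after the files were seen. Of the 117, 50 were called, 25 higher and 25 lower in metM-Wnt, or 42.7% against the 45.4% of all features. Among the 50, 9 passed the filter only through the line where they were bright, which fixes their direction. They stay in these counts and in those by strand below. Called under each alternative setting that tested them were 30 of the 50. The 63 tested probes on the strand of a gene whose annotated span holds them gave 21 calls (33.3%). The 42 that lie on the strand opposite to the window's gene, in no span of their own strand, gave 24 (57.1%), 15 higher and 9 lower. The 63 probes lie in windows of 52 genes and the 42 in windows of 32. Some probes of 1 window share bases and are not separate measurements. The part of this and of the filter in the 2 shares was not tested. The windows below are shown because their probes had large differences or moved together. Each is given 5′ to 3′ on the strand of its gene, with the bases that a tested probe covers in capitals.
Grin1os window, chr2:25291008-25291307, plus strand: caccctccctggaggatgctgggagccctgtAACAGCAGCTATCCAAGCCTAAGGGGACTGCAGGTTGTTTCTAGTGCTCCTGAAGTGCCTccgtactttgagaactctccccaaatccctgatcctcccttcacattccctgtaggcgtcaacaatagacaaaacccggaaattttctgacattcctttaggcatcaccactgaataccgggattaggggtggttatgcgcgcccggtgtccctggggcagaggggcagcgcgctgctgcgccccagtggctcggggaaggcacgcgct
Sphk1 window, chr11:116532201-116532500, plus strand: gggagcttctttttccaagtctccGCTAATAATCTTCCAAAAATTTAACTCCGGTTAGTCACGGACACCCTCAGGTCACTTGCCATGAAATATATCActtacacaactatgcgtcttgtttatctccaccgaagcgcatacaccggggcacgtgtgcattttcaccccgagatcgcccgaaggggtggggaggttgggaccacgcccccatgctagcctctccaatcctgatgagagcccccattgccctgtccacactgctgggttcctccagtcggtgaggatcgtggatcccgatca
Twnk window, chr19:45005413-45005712, plus strand: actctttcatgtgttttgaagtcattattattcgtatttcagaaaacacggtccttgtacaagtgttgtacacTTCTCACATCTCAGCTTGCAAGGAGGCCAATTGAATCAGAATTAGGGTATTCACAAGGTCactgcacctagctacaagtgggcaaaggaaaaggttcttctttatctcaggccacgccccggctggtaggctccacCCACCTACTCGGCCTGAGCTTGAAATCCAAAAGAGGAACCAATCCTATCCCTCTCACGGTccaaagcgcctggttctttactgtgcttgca
Fancl window, chr11:26386834-26387133, plus strand: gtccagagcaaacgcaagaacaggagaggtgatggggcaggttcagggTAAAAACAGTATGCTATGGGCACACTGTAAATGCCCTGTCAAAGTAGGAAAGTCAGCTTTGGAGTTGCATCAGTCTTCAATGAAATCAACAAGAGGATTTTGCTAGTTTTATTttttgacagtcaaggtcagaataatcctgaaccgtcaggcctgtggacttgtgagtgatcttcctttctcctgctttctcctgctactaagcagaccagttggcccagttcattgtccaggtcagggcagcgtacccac

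The largest difference of a placed probe was at chr2:25291039-25291098, before the start of the antisense gene Grin1os and on the plus strand. The position lies within the annotated span of Lrrc26 on the same strand. Lrrc26 encodes a leucine-rich repeat protein that serves as an auxiliary subunit of BK potassium channels in secretory epithelia. The probe read -2.85, -2.57 and -2.78 in metM-Wnt, against 1.76, 1.79 and 1.84 in E-Wnt. The lines stand far apart with little spread in either, a difference of -4.53 (SE 0.21, limma adjusted p = 1.6e-11), or 23.1-fold lower in metM-Wnt. In folic acid-free medium the difference was -4.53 as well.

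On chromosome 11, 3 overlapping probes cover 73 bases before 1 of the annotated starts of Sphk1, the sphingosine kinase that makes sphingosine 1-phosphate. They lie inside the annotated span of Sphk1 but read the opposite, minus strand. The probe at chr11:116532225-116532269 gave 0.97, 1.24 and 1.21 in metM-Wnt, against 2.84, 2.69 and 2.53 in E-Wnt. The line means differed by -1.55 (SE 0.19, limma adjusted p = 3.9e-06), and the other 2 probes both gave -1.57. The 3 probes share bases and are not separate measurements of the RNA.

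A further 2 probes lie before the start of Twnk, the mitochondrial DNA helicase, on the minus strand and within the span of Mrpl43, a mitochondrial ribosomal protein. The one at chr19:45005622-45005681 read -0.29, -0.28 and -0.41 in metM-Wnt, against 0.73, 0.72 and 0.85 in E-Wnt, a difference of -1.09 (SE 0.11, limma adjusted p = 4.5e-07). The one at chr19:45005486-45005545, which shares no base with it, gave -1.01 (SE 0.14, limma adjusted p = 1.2e-05). Both probes placed within the Mrpl43 span therefore read lower on all 3 metM-Wnt arrays. Whether they lie in exons of Mrpl43 was not checked.

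Upstream of Fancl, a ubiquitin ligase of the Fanconi anaemia DNA repair pathway, 2 overlapping probes read the strand opposite to the gene. At chr11:26386882-26386941 the ratios were 0.39, 0.69 and 0.35 in metM-Wnt, against -1.03, -0.99 and -0.49 in E-Wnt, a difference of 1.31 (SE 0.15, limma adjusted p = 2e-06). The neighbouring probe at chr11:26386935-26386994 gave 1.07 (SE 0.15). The largest increase of any placed probe was at chr5:8037898-8037957, on the strand opposite to Gm52802. It read 2.98, 2.89 and 3.05 in metM-Wnt and was well above background on none of the E-Wnt arrays (0.01, -0.04 and -0.01), which makes it at least 6.07-fold higher in metM-Wnt. A probe on the strand of Gzmm, outside its span, at chr10:79688818-79688877 read 0.01, -0.23 and -0.03 in metM-Wnt, against 1.16, 1.45 and 0.96 in E-Wnt, a difference of -1.28 (SE 0.13, limma adjusted p = 6.7e-07). Pairs of opposite-strand probes were also placed before Srsf6 and before Sec62. Both Srsf6 probes, which share bases, were well above background on no metM-Wnt array and were at least 1.59-fold and 1.67-fold lower there. They passed the filter only through E-Wnt, which fixes their direction, so these are values with no test. For Sec62 the differences were 0.71 and 0.70. The second was on a probe well above background on no E-Wnt array, so its direction was fixed in the same way. Within the span of Ppt2, a pair on the opposite strand that shares 48 bases gave 0.99 and 0.95. The first was called in 19 of 20 alternative settings, and the second was well above background on only 1 E-Wnt array.

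**Figure D4:**
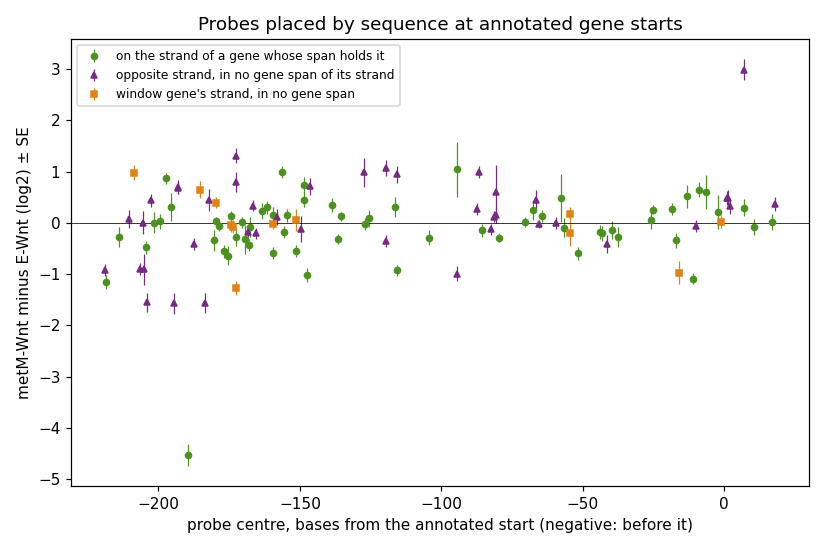
Difference between metM-Wnt and E-Wnt in control medium (y axis, log2 with SE bars from limma) of 117 probes placed by sequence, against the distance of the probe's centre from the annotated gene start (x axis, bases). The point at -4.53 is the probe within the Lrrc26 span, and the point at 2.99 is the one opposite Gm52802.

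Probes without a gene gave the largest differences. Among those well above background on all 6 arrays, A_51_P392687 read 0.65, 0.44 and 0.50 in metM-Wnt, against -8.02, -7.62 and -8.19 in E-Wnt, a difference of 8.47 (SE 0.19). A_51_P337412 followed with a difference of 8.34 (SE 0.21). In the other direction A_51_P324814 read -5.25, -5.01 and -5.22 in metM-Wnt, against 4.50, 4.24 and 4.76 in E-Wnt, a difference of -9.66 (SE 0.20), and A_51_P317941 had -8.75 (SE 0.18). In each of the 4 the spread within a line was small beside the gap between the lines.

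On all 3 metM-Wnt arrays and no E-Wnt array 603 probes were well above background, and the reverse held for 1773 probes. They passed the filter through the line where they are bright, which fixes the direction, so they are given as a description with no test. Those of them that were called stay in the counts of calls above. The metM-Wnt arrays had the lower red signal, and the share of probes well above background was 45.5% to 47.8% on them, against 48.1% to 53.7% on the E-Wnt arrays. Its part in the 2 counts was not tested. For such probes a fold is a bound, taken from red signals rebuilt after loess and quantile normalisation of average intensity between arrays (Aquantile in limma). It is the mean of the bright line over that of the dim line, with signals averaged on the log2 scale. Each dim array takes the higher of the probe's own signal and the lowest signal well above background on that array. Bounds carry any dye bias, since no dyes were swapped. The median bound was 2.35-fold for the 603 probes of metM-Wnt and 1.35-fold for the 1773 of E-Wnt, so many of them lie near the limit of detection. A bound of at least 2-fold held for 360 of the metM-Wnt probes and 430 of the E-Wnt probes, and one of at least 16-fold for 38 of the metM-Wnt probes and 55 of the E-Wnt probes. The largest bounds were at least 2043-fold higher and at least 136-fold lower in metM-Wnt.

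M-Wnt, the mesenchymal line grown in the same medium, was set beside the 2 lines as levels with no test. Its mean lay nearer to metM-Wnt than to E-Wnt for 30 of the 33 called named genes, and for 15388 of all 17813 called features (86.4%). Among called features of at least 2-fold the share was 93.8%. These sets include features that were not well above background in 1 of the 2 lines, Rnf125, Gm904 and BC006965 among them. For those the comparison rests in part on values near background. BC065403 averaged 1.92 ± 0.19 in metM-Wnt, 2.15 ± 0.13 in M-Wnt and -0.10 ± 0.03 in E-Wnt (SD, n = 3 each). Tbc1d16 averaged -4.51 ± 0.12 in metM-Wnt, -4.69 ± 0.20 in M-Wnt and -1.78 ± 0.15 in E-Wnt. Hspb1 lay between, at -2.15 ± 0.38 in metM-Wnt, -3.00 ± 0.17 in M-Wnt and -4.07 ± 0.11 in E-Wnt. Pdlim5 averaged 0.72 ± 0.21 in metM-Wnt, 0.18 ± 0.13 in M-Wnt and -0.69 ± 0.21 in E-Wnt. Ppid averaged 0.22 ± 0.20 in metM-Wnt, 0.78 ± 0.21 in M-Wnt and 1.38 ± 0.25 in E-Wnt. The probe within the Lrrc26 span read -2.87, -3.04 and -2.84 in M-Wnt, and the probe opposite Gm52802 read 3.34, 3.06 and 2.98, so both stood with metM-Wnt.

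The same 2 lines were also compared in folic acid-free medium, on 6 other arrays. The fit takes its spread from all 18 arrays, so the calls in the 2 media are not independent of each other. There 17381 features, 44.3%, were called, 8689 higher in metM-Wnt (22.1%) and 8692 lower (22.1%). With median centring 16.2% of the calls in that medium were higher, and the median difference was -0.43, against 0.02. Of the 17813 calls in control medium, 13360 were called with the same sign in folic acid-free medium, which is 75% of the control-medium calls and 76.9% of the folic acid-free ones, and 44 were called with the opposite sign. Among control-medium calls of at least 2-fold, 95.1% were called again with the same sign. When each medium was fitted on its own 6 arrays alone, 15623 features were called in control medium and 13124 in folic acid-free medium. Of those, 10628 were called with the same sign in both, 68.0% of the control-medium calls and 81.0% of the folic acid-free ones, and 12 with the opposite sign. The named genes gave 30 calls in folic acid-free medium, 25 of them shared with control medium and all 25 with the same sign. Tbc1d16 differed by -2.86, Hspb1 by 2.23, U90926 by 2.12, BC065403 by 1.80, Pate14 by -1.66 and Ezr by -1.53 in folic acid-free medium. The size for U90926 rests in part on 1 array, since E-Wnt read 2.41, 2.17 and 0.52 there (SD 1.03). The line differences of Tmem41b (0.29, limma adjusted p = 0.17) and Ccdc137 (0.06, limma adjusted p = 0.8) were not called there.

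**Figure D5:**
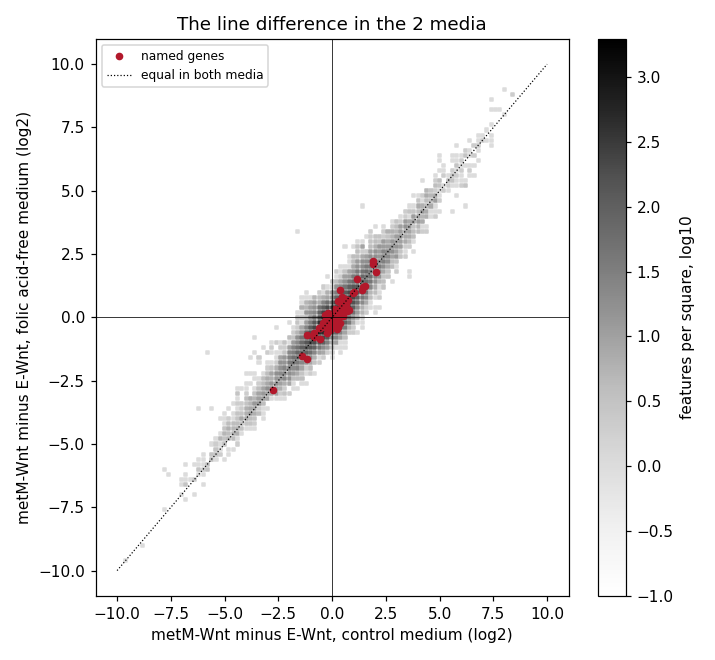
Difference between metM-Wnt and E-Wnt (log2) in control medium (x axis) and in folic acid-free medium (y axis) for all 39252 features (grey squares, darker where more features fall) and the 71 named genes (red points). The dotted line marks equal differences, and Tbc1d16 is the lowest red point at -2.74 and -2.86.

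The difference between the media was tested for each feature as an interaction in the same limma fit. It was called for 35 features, 0.0892%, with 5193 at an unadjusted p under 0.05, and none of the 71 named genes was among them. In 27 of the 35 the metM-Wnt minus E-Wnt difference was higher in folic acid-free medium, and in 8 it was lower. In all 27 the metM-Wnt mean was higher without folic acid than with it, while the E-Wnt mean was lower. The 27 were picked by the gap between these 2 shifts, which favours shifts in opposite directions. Neither shift was tested by itself, and some were small, such as an E-Wnt shift of -0.09. Macrod2, an ADP-ribosyl hydrolase gene, had a line difference of 1.08 in folic acid-free medium and 0.35 in control medium, and its interaction was not called (limma adjusted p = 0.13). With the slide as a fixed block, chosen after seeing the data, 4 features were called, with 4185 at an unadjusted p under 0.05. All 35 kept their sign under that block and 3 of them were called. The count of 35 also depended on single arrays: without E-Wnt folic acid-free replicate 3 it was 749, without E-Wnt folic acid-free replicate 2 it was 93, and without replicate 1 there it was 20. Without metM-Wnt folic acid-free replicate 2 or 3 it was 13 or 20. Without metM-Wnt control replicate 1 or 2 it was 11 or 12, and without E-Wnt control replicate 2 or 3 it was 13 or 22.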

How the data were processed

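RNA of cultured mouse tumour cells was measured on 18 two-colour arrays in 6 groups of 3 (line by medium), and 6 of these arrays make the comparison described. Per the file headers, the authors quantified spot intensity with Agilent Feature Extraction 10.7.3.1, which the submitters' processing notes also name. The deposited intensity values are on a linear scale, as their columns show. Values of the series table deposited by the authors are log10 ratios, red over green, and equalled the scanner's log10 ratio of that array within 0.005, with a median of 0 in every column.

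Background was corrected by normexp (offset 50), log2 ratios were normalised by loess within each array, with weight 0 for control and outlier-marked spots, and the usable spots of a probe were averaged. Probes of a named gene were averaged, and 19 probes were dropped because an array had no usable spot of them. The 39252 features were fitted in limma 3.58.1 (R 4.3.3, data.table version 1.17.8) as 6 group means over all 18 arrays, with 12 residual and 3.96 prior degrees of freedom, no trend and not robust. Tests were two-sided with Benjamini-Hochberg adjustment over all features. The script was tested on simulated data. Figures used matplotlib 3.10.9.

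Names came from accessions in probe identifiers (19687 probes carry one, and 220 matched 157 RefSeq genes: 182 by transcript, 11 by synonym and 27 by symbol). Sequences and windows are from the scanner files and from RefSeq (GRCm38.p6). Called named genes were described by size, up to 15 higher and 15 lower, plus members of 30 gene lists, 16 of which had a tested member. Of probes without a name, 2 higher and 2 lower with signal in both lines are identified. The members, lists and tests were chosen with earlier results of these data known. The number of arrays limits the precision, and the number of saturated spots was 0. Replicate numbers were not taken as pairs, since same-numbered arrays of the 2 lines deviated together with correlations of 0.228, 0.149 and 0.0751.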

Additional observations from a re-analysis of the deposited data

Results flagged for a closer look

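The difference between metM-Wnt and E-Wnt was not the same in both media for 35 features by the interaction term of the limma fit. The largest was a catalogue probe with an interaction of 4.95 on the log2 scale. It averaged 0.48 in metM-Wnt and -2.92 in E-Wnt in folic acid-free medium, and -0.45 in metM-Wnt and 1.09 in E-Wnt in control medium, so its direction turned. The second, at 4.36, averaged -2.63 in metM-Wnt and -1.27 in E-Wnt in folic acid-free medium, and -3.77 in metM-Wnt and 1.96 in E-Wnt in control medium. The lowest 2 interactions were -1.87 and -1.30. No gene name is available for these 4 probes. With the slide as a fixed block the 4 interactions were 5.13, 4.46, -1.31 and -1.14 in the order given, and the first 2 were still called (limma adjusted p = 0.049 for both), while the last 2 were not (limma adjusted p = 0.38 for both).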

How the results depend on the processing

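The counts of called features in control medium and in folic acid-free medium stayed within 1.5 times under every alternative run. In control medium they ranged over 12464 (median centring) to 21648 (slide as a random block), and leaving out 1 array gave 15631 to 17445. A fixed slide block could not be fitted for the line difference within a medium, since no slide holds both lines, and the random block's estimated correlation was -0.145. Named genes called fell to 17 with median centring, against 33. Cstdc2 turned its sign there (-0.0178), and the cause was not tested. The 657 values of called named genes under alternatives held 579 still called, and 77 with the same direction but no call. The median shift of that centring, and its split of calls, stand in the report.

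The count of features whose line difference depended on the medium (35) was unstable. It was 4 with median centring, 19 with Agilent's processed signals and 19 with the series table, 5 when only the 12 arrays of the 2 lines were fitted, 82 with array weights, 8 with the replicate block 387 with the slide as a random block and 4 with the slide as a fixed block, which can be fitted for this difference and was chosen after seeing the data. Leaving out 1 array gave 11 to 749, and the cause was not tested. With the replicate block the count of control-medium calls was 16921. Leaving out probes with the VIRS prefix or without a catalogue or ncRNA prefix, chosen after seeing the data, gave 17408 calls.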
